A study of Arabidopsis thaliana with 47 samples.

Results

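The probe sets described here had higher signal with nitrogen than with KCl in cycloheximide-treated Arabidopsis root cells of both kinds tested, those that expressed the transcription factor bZIP1 and those that carried the empty vector. Their levels hardly differed with dexamethasone in the bZIP1 cells treated with cycloheximide, which the choice required. The probe sets were chosen on measured values. The nitrogen effect (N effect, the mean of the groups with nitrogen minus the mean of the groups without it, on the log2 scale, averaged over both dexamethasone states) had to be at least 0.35 in bZIP1 cells with cycloheximide and in empty-vector cells with cycloheximide. The dexamethasone effect (DEX effect, built likewise) had to lie between -0.3 and 0.3 in bZIP1 cells with cycloheximide, and the mean level had to be at least 4 in both arms. Of 22746 probe sets on the ATH1 array, 8920 had that mean level in both arms. All limits were met by 65, and 5 of these were dropped because they stood among 8 probe sets left out by identifier, which hold HHO2, a transcription factor gene of the nitrate response, and PGD1 and PGD3, genes of the pentose phosphate pathway. That left 60 members. The annotation table used here gave 28 of them 1 gene each, on chromosomes 1 to 5, and the other 32 are called by their probe set identifiers.

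Protoplasts were made from roots of Col-0 seedlings aged 10 days, by 4 h of cell wall digestion and 25 min of transfection. The plasmid expressed, from the 35S promoter, a fusion of bZIP1 to the hormone-binding part of a glucocorticoid receptor (pBeaconRFP_GR::bZIP1), or was the empty pBeaconRFP_GR vector. All plasmids carried a red fluorescent marker by which transfected cells were sorted. Expression was transient, every group carried the receptor vector, and the endogenous bZIP1 gene was left in place. Cells then received 20 mM KNO3 with 20 mM NH4NO3 for 2 h, or 20 mM KCl in its place. Groups with nitrogen thus also differed from the others in total added salt and in KCl. The design does not separate these from nitrogen. Cycloheximide (CHX), which blocks protein synthesis, or no CHX followed. The last step was 10 µM dexamethasone (DEX) in ethanol, which lets the fusion enter the nucleus, or ethanol alone. There were 3 arms, each crossing N with DEX. bZIP1 with CHX had 24 arrays, 6 for each combination of N and DEX, from 2 labelled Bioreps of 3 treatment replicates each. Empty vector (EV) with CHX had 11 arrays, 3 for each combination except 2 for DEX without N. bZIP1 without CHX had 12 arrays, 3 for each combination.

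Nitrate and ammonium are both nutrients and signals for roots. Within minutes to hours of supply, roots change the transcript levels of genes for nitrate uptake, nitrate reduction and the reducing power that assimilation consumes. Cycloheximide stops translation, so that transcripts which change after its addition do so without new protein. Here it was added after nitrogen. Small heat shock proteins, several of which appear among the members, hold unfolding proteins in solution, and the Hsp70 and Hsp90 machines with their co-chaperones refold them.

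Within a group, pairs of arrays had Pearson correlations (over probe sets) between 0.978 and 0.996 for bZIP1 with CHX, between 0.993 and 0.997 for EV and between 0.994 and 0.997 for bZIP1 without CHX. The lowest value of the arm was shared by 28.9% to 32.4% of the probe sets on each array. No member had such a value in the arms with CHX, and 1 member, 261431_at, lay there on all 12 arrays without CHX. Arms were evidently normalised separately, so levels are compared only within an arm. Of the root cell type markers looked for, 2 could be matched, the root hair gene EXPA7 (AT1G12560) and the cortex gene CO2 (AT1G62500). Both had mean levels between 2.29 and 2.36 in all arms, at or near the lowest value. The leaf gene LHCB4.1 (AT5G01530) had mean levels of 4.51 to 5.12, so these genes do not mark the cells as root cells. In such pooled cells, fewer cells of a type and less RNA per cell cannot be told apart.

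The N effects that chose the members had a median of 0.48 and a range of 0.35 to 3.10 in bZIP1 cells with CHX, and a median of 0.55 and a range of 0.35 to 2.53 in EV cells. Over all probe sets with a mean of at least 4, the medians were 0.02 and 0.04. These values describe the choice and are not tested. The effect was larger in EV cells than in bZIP1 cells for 42 of the 60, it reached 1 in both arms for 5, and it stayed under 0.5 in both for 17. Adjusted p was under 0.05 by limma for 31 of 60 members in bZIP1 cells, where 0.862% of all probe sets rose, and for 4 of 60 in EV cells, where 0.101% rose. Nothing is read from these counts, since the same contrast set the members. The 5 members just inside the limit of 0.35, by the smaller of their N effects, were AT4G01410, 263085_at, AT1G70790, 257516_at and AT1G73920, at 0.352 to 0.358. The 5 just outside were 266646_at, 255279_at, 251396_at, AT2G36740 and 246223_at, at 0.346 to 0.348. The plot of N effects by arm shows the whole set.

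**Figure D1:**
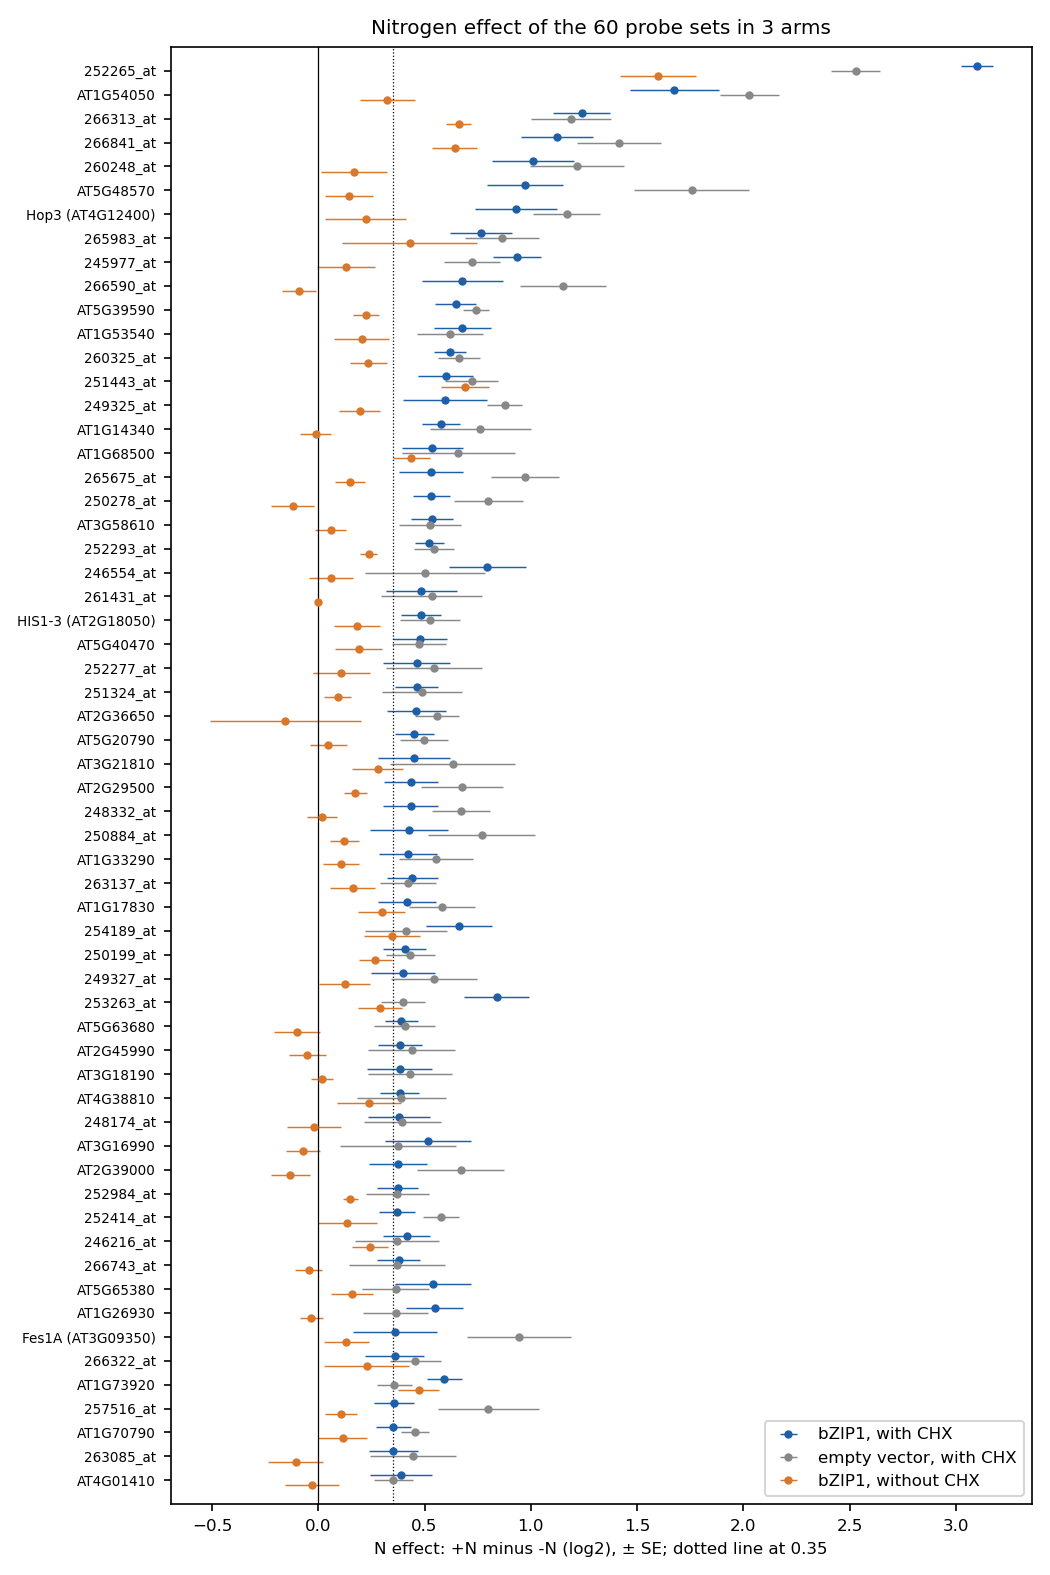
N effect (log2, nitrogen minus KCl) of each of the 60 members, with its standard error, in bZIP1 cells with CHX, empty-vector cells with CHX and bZIP1 cells without CHX. The dotted line is the limit of 0.35 that both arms with CHX had to reach, so only the values without CHX are free of the choice. Of those, 7 lie at or above it, against 1.53% of probe sets with a mean of at least 4 without CHX.

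With 6 arrays against 6 in bZIP1 cells with CHX, every array with nitrogen lay above every array without it for 5 of the 60 members in cells with DEX, against 0.132% of all probe sets, and for 11 in cells without DEX, against 0.154%. In EV cells the same held for 48 members with DEX (3 arrays against 2) and 43 without DEX (3 against 3), against 6.82% and 4.68% of all probe sets. These arrays chose the members, so the shares are given as a description.

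The largest named group was 6 genes of heat shock proteins and their co-chaperones. Their N effects had a median of 0.80 in bZIP1 cells with CHX and 1.06 in EV cells, against 0.46 and 0.49 for the 22 other named members. The genes were put together after their values were seen. AT3G18190, a chaperonin gene among the other named members, was not put with them. It had N effects of 0.38 and 0.43 in those arms. AT1G54050, a small heat shock protein gene, had the largest N effect of any named member, 1.67 ± 0.21 in bZIP1 cells with CHX and 2.03 ± 0.14 in EV cells (log2 ± SE), or 3.19-fold and 4.08-fold. In EV cells with DEX, AT1G54050 had levels of 8.03, 7.96 and 7.90 with nitrogen and 5.99 and 6.14 without. In EV cells without DEX it had 8.51, 9.11 and 8.49 with nitrogen and 6.55, 6.78 and 6.31 without. The groups did not overlap in either DEX state. In bZIP1 cells with CHX and DEX it ranged from 6.65 to 8.63 (median 7.29) with nitrogen and from 4.91 to 6.58 (median 6.23) without. In those without DEX it ranged from 7.28 to 8.82 (median 7.64) with nitrogen and from 5.43 to 6.54 (median 6.13) without, again with no overlap.

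AT5G48570 encodes ROF2, an FK506-binding protein that acts as a co-chaperone. Its N effect was 0.97 ± 0.18 in bZIP1 cells with CHX and 1.76 ± 0.27 in EV cells. In EV cells with DEX, AT5G48570 read 6.90, 6.90 and 7.19 with nitrogen and 5.24 and 5.13 without. In EV cells without DEX it read 7.07, 8.37 and 7.49 with nitrogen and 5.94, 6.46 and 5.45 without. No array without nitrogen reached the lowest array with it. In bZIP1 cells with CHX and DEX the ranges met, at 5.52 to 7.35 with nitrogen and 5.34 to 5.86 without. In those without DEX they were 6.15 to 7.55 with nitrogen and 5.25 to 5.76 without, and did not meet.

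AT4G12400 encodes Hop3, which links Hsp70 to Hsp90. Its N effect was 0.93 ± 0.19 in bZIP1 cells with CHX and 1.17 ± 0.16 in EV cells. In EV cells with DEX, AT4G12400 read 7.77, 7.33 and 7.52 with nitrogen and 6.67 and 6.46 without. In EV cells without DEX it read 7.64, 8.49 and 8.01 with nitrogen and 6.64, 6.70 and 6.71 without. The 2 sets of arrays were apart in EV cells and overlapped in bZIP1 cells with CHX. There the range with DEX was 6.31 to 7.68 with nitrogen and 5.45 to 6.71 without, and the range without DEX was 6.52 to 7.54 with nitrogen and 5.63 to 6.63 without.

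The remaining 3 were smaller in effect. AT1G53540, a small heat shock protein gene with the highest level of the group, had N effects of 0.68 ± 0.13 in bZIP1 cells with CHX and 0.62 ± 0.16 in EV cells. In EV cells with DEX, AT1G53540 read 11.75, 11.46 and 11.51 with nitrogen and 10.45 and 11.15 without. AT2G29500, another small heat shock protein gene, had N effects of 0.44 ± 0.13 and 0.68 ± 0.19 in those arms. AT3G09350 encodes Fes1A, a nucleotide exchange factor for Hsp70, and had 0.36 ± 0.20 and 0.94 ± 0.24. In bZIP1 cells with CHX and DEX, AT3G09350 had levels of 3.57 to 5.30 with nitrogen and 3.55 to 4.64 without, which overlapped.

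In EV cells without DEX, replicate 2 was the highest of 3 arrays for 5 of the 6 genes with nitrogen and for 5 of the 6 without nitrogen. Arrays were then left out, a choice made after seeing the data. Without those 2 arrays, the median N effect of the 6 genes in EV cells was 1.04, against 1.06 with all arrays. The 6 effects then ran from 0.59 to 1.98. Without only the replicate 2 array with nitrogen and without DEX, the median was 0.98 and the range 0.55 to 1.93. The same N effect chose the members, so these values are a description.

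**Figure D2:**
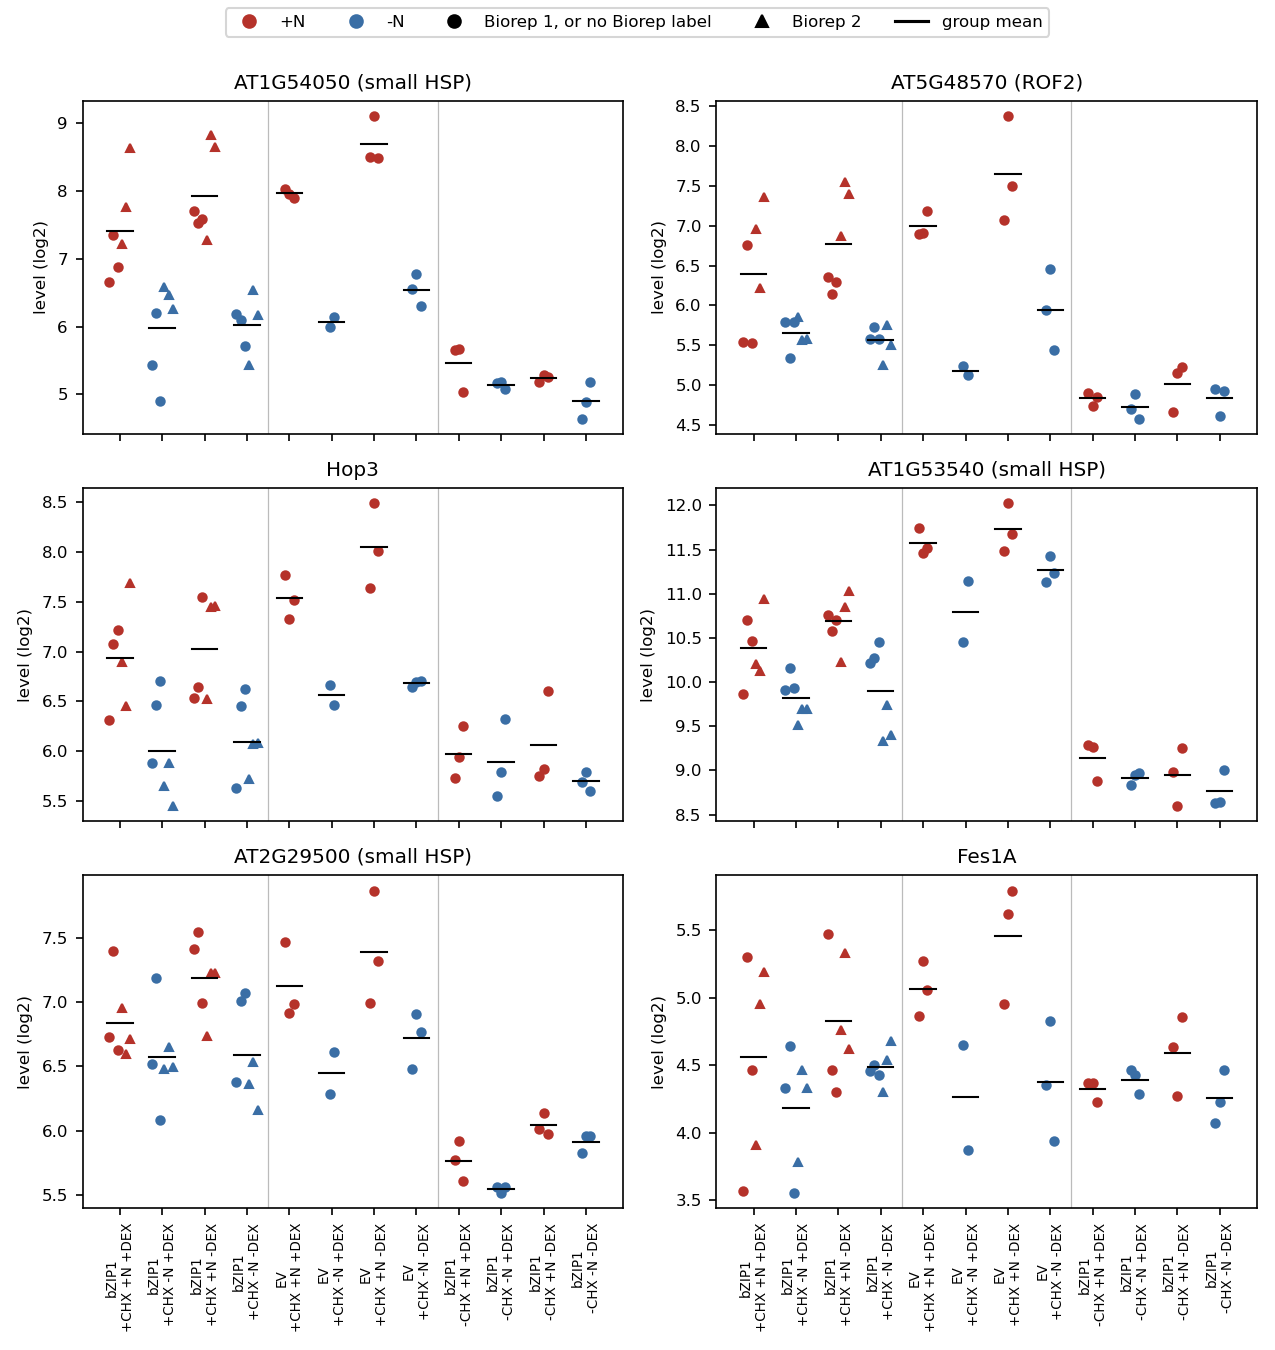
Levels (log2) of the 6 heat shock and co-chaperone members, AT1G54050, AT5G48570, Hop3, AT1G53540, AT2G29500 and Fes1A, on each of the 47 arrays, with nitrogen in red and without in blue. Triangles are Biorep 2, circles are Biorep 1 or arms with no Biorep label, and bars are group means. Group means with nitrogen lie higher in the 4 left and 4 middle columns. The arrays are apart for all 6 genes in empty-vector cells, while in bZIP1 cells with CHX they overlap in at least 1 DEX state for all but AT1G54050, and the 4 right columns, from cells without CHX, show small differences.

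Among all members the probe set 252265_at had the largest N effect, 3.10 ± 0.07 in bZIP1 cells with CHX, 2.53 ± 0.11 in EV cells and 1.60 ± 0.18 in bZIP1 cells without CHX, or 8.57-fold, 5.77-fold and 3.03-fold. In bZIP1 cells with CHX and DEX, 252265_at ranged from 8.68 to 9.75 (median 9.14) with nitrogen and from 5.69 to 6.55 (median 6.26) without. In those without DEX it ranged from 8.82 to 9.82 (median 9.17) with nitrogen and from 5.39 to 6.47 (median 6.10) without. EV cells with DEX gave 8.86, 9.25 and 9.45 with nitrogen and 6.62 and 6.43 without. EV cells without DEX gave 9.21, 9.02 and 9.23 with nitrogen and 6.91, 6.64 and 6.72 without. In all 4 settings the gap between the 2 sets of arrays was wider than the spread within either. Next came 266313_at, with 1.24 ± 0.13 in bZIP1 cells with CHX and 1.19 ± 0.19 in EV cells, 266841_at, with 1.12 ± 0.17 and 1.41 ± 0.20, and 260248_at, with 1.01 ± 0.19 and 1.22 ± 0.22. No gene is given to these probe sets here.

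The other named members had N effects of 0.35 to 0.65 in bZIP1 cells with CHX and 0.35 to 0.76 in EV cells. In metabolism, AT3G58610 encodes ketol-acid reductoisomerase, an enzyme of branched-chain amino acid synthesis, and had 0.53 ± 0.10 in bZIP1 cells with CHX and 0.53 ± 0.15 in EV cells. In EV cells with DEX, AT3G58610 read 6.74, 6.55 and 6.19 with nitrogen and 6.03 and 6.21 without, so the arrays overlapped. In EV cells without DEX, AT3G58610 read 6.81, 6.62 and 6.44 with nitrogen and 6.22, 5.96 and 5.63 without, with no overlap. AT5G63680, a pyruvate kinase gene, had 0.39 ± 0.08 and 0.41 ± 0.14. AT3G16990, of the TENA/THI-4 family, had 0.52 ± 0.20 and 0.37 ± 0.27, with the largest standard error of the metabolic genes in both arms. AT1G73920, an alpha/beta-hydrolase gene, had 0.59 ± 0.08 and 0.36 ± 0.08, and AT2G39000, an acetyltransferase gene, had 0.37 ± 0.14 and 0.67 ± 0.20.

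Of genes for chromatin and RNA, AT2G18050 encodes HIS1-3, a linker histone known to rise in drought, and had 0.48 ± 0.09 in bZIP1 cells with CHX and 0.52 ± 0.14 in EV cells. AT1G14340, an RNA-binding protein gene, had 0.58 ± 0.09 and 0.76 ± 0.24, and AT3G21810, a zinc finger gene, had 0.45 ± 0.17 and 0.63 ± 0.29. Signalling genes were AT4G38810, with calcium-binding EF hands, at 0.38 ± 0.09 and 0.39 ± 0.21, AT1G70790, with a C2 domain, at 0.35 ± 0.08 and 0.45 ± 0.07, and the kelch F-box gene AT1G26930, at 0.55 ± 0.13 and 0.36 ± 0.15. The transporter gene AT5G65380, of the MATE efflux family, had 0.54 ± 0.18 and 0.36 ± 0.16. AT3G18190, a subunit of the cytosolic chaperonin, which folds actin and tubulin, had 0.38 ± 0.15 and 0.43 ± 0.20. AT5G39590, which carries a TLD domain, had 0.65 ± 0.10 and 0.74 ± 0.06. In EV cells with DEX, AT5G39590 read 8.92, 8.89 and 8.92 with nitrogen and 8.17 and 8.21 without.

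Cells without CHX gave a view of the nitrogen response that the choice of members did not use. The N effect there was above 0 for 46 of the 60 members (76.7%), against 46.7% of the 9931 probe sets with a mean of at least 4 in that arm, and its median was 0.15, against -0.01. Past the threshold of an adjusted p of 0.05 by limma were 2 members, both higher with nitrogen, where 0.044% of all probe sets rose. None fell, where 0.044% of all probe sets did. Among probe sets with a mean of at least 4 in that arm, 0.0806% rose and 0.0906% fell. By limma's unadjusted p, 18 of the 60 members were under 0.05, against 6.34% of all probe sets at any level. Most members thus had small positive values that did not pass singly. Every array with nitrogen lay above every array without it for 14 of the 60 members in cells with DEX and 11 in cells without DEX, against 3.09% and 3.47% of all probe sets. All probe sets include many at or near the lowest value. No share at a matched level is given for unadjusted p or for this separation of arrays.

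The 2 that passed were 252265_at and 266313_at. In bZIP1 cells without CHX and with DEX, 252265_at read 7.51, 6.68 and 7.48 with nitrogen and 5.20, 5.48 and 5.68 without. In those without DEX it read 8.51, 7.99 and 8.41 with nitrogen and 7.07, 6.62 and 6.92 without. The N effect was 1.60 ± 0.18 (limma, adjusted p = 0.0300). For 266313_at the arrays with DEX read 7.71, 7.50 and 7.65 with nitrogen and 6.92, 6.69 and 6.80 without. Those without DEX read 7.63, 7.53 and 7.53 with nitrogen and 7.18, 7.06 and 6.92 without. Its N effect was 0.66 ± 0.06 (limma, adjusted p = 0.0102). Neither call held when any 1 of the 3 replicates was left out, while over all probe sets 5 to 7 calls were left.

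A further 5 members had N effects of at least 0.35 without CHX and did not pass. They were 251443_at at 0.69 ± 0.11, 266841_at at 0.64 ± 0.11, AT1G73920 at 0.47 ± 0.10, AT1G68500 at 0.44 ± 0.09 and 265983_at at 0.43 ± 0.32. AT1G73920 read 8.50, 8.38 and 8.34 with nitrogen and 8.31, 7.97 and 7.79 without, in cells with DEX. In cells without DEX, AT1G73920 read 8.87, 8.50 and 8.79 with nitrogen and 8.20, 8.10 and 8.18 without. AT1G68500 read 9.91, 10.15 and 10.09 with nitrogen and 9.49, 9.21 and 9.53 without, in cells with DEX. In cells without DEX, AT1G68500 read 10.00, 9.70 and 9.87 with nitrogen and 9.77, 9.45 and 9.64 without, and the arrays overlapped. With low probe sets removed before adjustment, 6 members passed, among 89 calls over the 9931 probe sets kept. AT1G73920 then had an adjusted p of 0.0406 and AT1G68500 of 0.0419 by limma.

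The chaperone genes were among the members with small values without CHX. All 6 were above 0, with a median of 0.19 and a range of 0.13 to 0.32, and none passed. The chaperonin gene AT3G18190, outside this group, had 0.02 ± 0.05. AT1G54050 had 0.32 ± 0.13. In cells with DEX, AT1G54050 read 5.66, 5.67 and 5.04 with nitrogen and 5.16, 5.18 and 5.08 without, so the arrays overlapped. In cells without DEX, AT1G54050 read 5.18, 5.28 and 5.26 with nitrogen and 4.64, 4.89 and 5.18 without. AT5G48570 had 0.15 ± 0.11, AT4G12400 (Hop3) had 0.22 ± 0.19, and their arrays with and without nitrogen overlapped in both DEX states. The same held for AT1G53540 and AT3G09350 (Fes1A). AT2G29500, at 0.17 ± 0.05 (limma, adjusted p = 0.502), was the exception, with no overlap in either DEX state. With DEX, AT2G29500 read 5.77, 5.91 and 5.61 with nitrogen and 5.56, 5.51 and 5.56 without, and without DEX it read 6.01, 6.14 and 5.97 with nitrogen and 5.82, 5.95 and 5.96 without. The N effect without CHX was below both effects with CHX for 58 of the 60 members. Since the members were taken for high values with CHX, a lower value elsewhere is partly built into the choice, and the difference between arms was not tested.

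**Figure D3:**
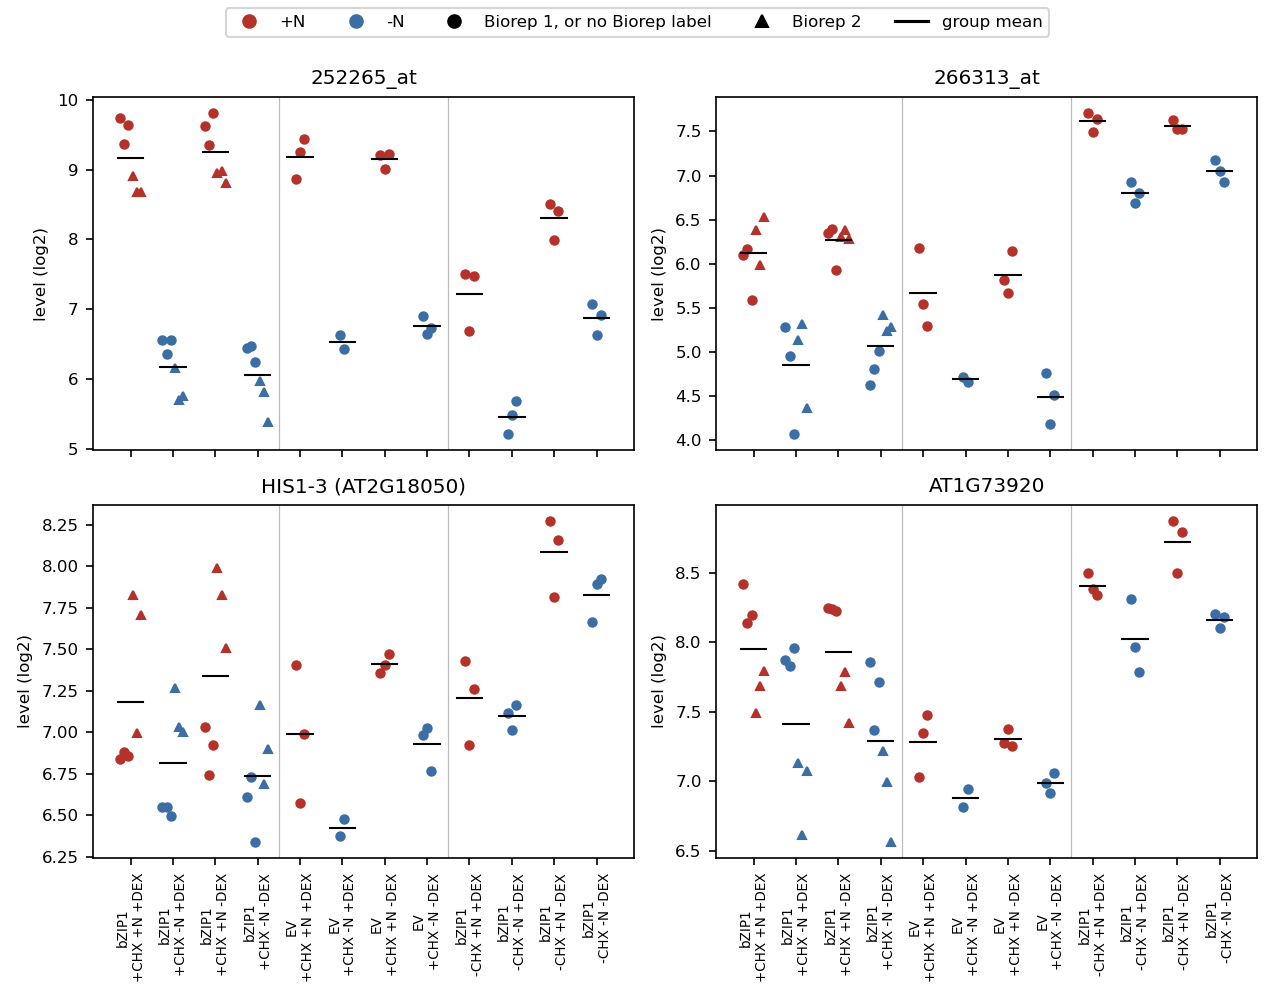
Levels (log2) of 252265_at, 266313_at, HIS1-3 and AT1G73920 on each of the 47 arrays, drawn as in the plot of chaperone genes. 252265_at shows no overlap of arrays with and without nitrogen in any arm and DEX state, and in cells without CHX its levels, like those of HIS1-3, lie lower with DEX than without at the same nitrogen state.

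The DEX effect of the members was bounded by the rule in bZIP1 cells with CHX, where 0 of 60 passed against 6.16% of all probe sets, which only restates the choice. In bZIP1 cells without CHX, where the rule put no bound, 12 of 60 members passed by limma (20.0%), 3 higher and 9 lower with DEX. Of all probe sets 4.29% passed, 1.84% higher and 2.45% lower. Of those with a mean of at least 4 in that arm 8.85% passed, 3.92% higher and 4.93% lower. The median DEX effect of the members was -0.03 and the range -1.69 to 1.33. By limma's unadjusted p, 22 of the 60 were under 0.05, against 13.9% of all probe sets at any level. A share at a matched level is not given for unadjusted p. Members held to small DEX effects with CHX thus included some that changed with DEX in its absence. Whether the DEX effect differed between these arms was not tested.

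**Figure D4:**
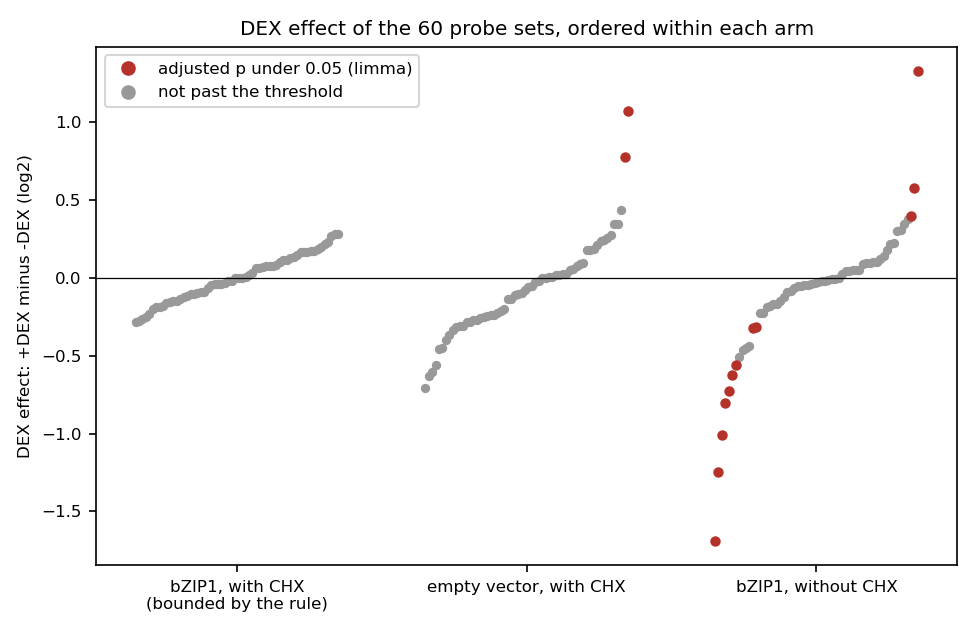
DEX effect (log2, DEX minus no DEX) of each of the 60 members in bZIP1 cells with CHX, empty-vector cells with CHX and bZIP1 cells without CHX, ordered by size within an arm. Red points passed an adjusted p of 0.05 by limma, 0 members in bZIP1 cells with CHX, 2 in empty-vector cells and 12 in bZIP1 cells without CHX, where the effects ran from -1.69 to 1.33.

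Of the named members, HIS1-3 (AT2G18050) changed most, by -0.80 ± 0.11 in bZIP1 cells without CHX (limma, adjusted p = 0.00450), which is 0.57 of the level without DEX. With nitrogen, AT2G18050 read 7.43, 6.92 and 7.26 with DEX and 8.27, 7.82 and 8.16 without. Without nitrogen it read 7.12, 7.01 and 7.16 with DEX and 7.66, 7.89 and 7.92 without, so every array with DEX lay below every array without it. The small heat shock gene AT2G29500 fell by 0.32 ± 0.05 (adjusted p = 0.0133 by limma). With nitrogen, AT2G29500 read 5.77, 5.91 and 5.61 with DEX and 6.01, 6.14 and 5.97 without. Without nitrogen it read 5.56, 5.51 and 5.56 with DEX and 5.82, 5.95 and 5.96 without. AT3G16990, of the TENA/THI-4 family, rose by 0.40 ± 0.08 (adjusted p = 0.0298 by limma). With nitrogen, AT3G16990 read 8.97, 8.76 and 8.77 with DEX and 8.50, 8.29 and 8.64 without, and the groups were apart.

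Of the unnamed members, 257516_at rose by 1.33 ± 0.08, or 2.52-fold (limma, adjusted p = 6.91e-05). With nitrogen, 257516_at read 8.28, 8.37 and 8.52 with DEX and 7.25, 7.11 and 6.96 without. Without nitrogen it read 8.36, 8.43 and 8.19 with DEX and 7.06, 7.01 and 6.79 without. 266743_at rose by 0.58 ± 0.06. Falls were found for 265983_at (-1.69 ± 0.32), 252265_at (-1.25 ± 0.18), 266322_at (-1.01 ± 0.20), 254189_at (-0.73 ± 0.13), 266841_at (-0.62 ± 0.11), 251324_at (-0.56 ± 0.06) and 252984_at (-0.32 ± 0.03), with adjusted p from 0.00159 to 0.0255 by limma. The probe set with the largest N effect was thus also among those that fell with DEX without CHX, at 0.42 of the level without DEX. Only 257516_at kept its call whichever of the 3 replicates was left out. Without replicate 1, 2 or 3 the members called numbered 1, 4 and 1, and calls over all probe sets also fell, to 213, 313 and 199, against 975 with all arrays.

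In EV cells, which carry no GR::bZIP1, 2 members passed for the DEX effect, both higher, against 0.615% of all probe sets that rose and 1.05% that passed in either direction. Among probe sets with a mean of at least 4 in that arm, which all 60 members reached, 2.28% passed, against 3.33% of the members. By limma's unadjusted p, 17 of the 60 members were under 0.05, against 7.44% of all probe sets at any level. No share at a matched level is given for this count. The 2 that passed were 263137_at, at 1.07 ± 0.13 (limma, adjusted p = 0.0141), and 251443_at, at 0.78 ± 0.13 (limma, adjusted p = 0.0394). With nitrogen, 263137_at read 6.86, 6.86 and 6.69 with DEX and 6.20, 6.11 and 6.19 without. Without nitrogen it read 7.04 and 6.60 with DEX and 5.62, 5.37 and 4.95 without. With nitrogen, 251443_at read 9.02, 8.48 and 8.59 with DEX and 7.78, 7.64 and 7.52 without, and the arrays were apart. Without nitrogen the DEX effect of 251443_at was smaller, by 0.55 ± 0.25, a difference that did not pass by limma. Leaving out replicate 1 ended both calls, and 1 other member, 265675_at, was then called at -0.82, among 784 calls over all probe sets, against 238 with all arrays. Without replicate 2 no member was called, among 8 calls. Without replicate 3 the call for 251443_at was lost, while 263137_at passed with AT5G63680 and AT2G36650, among 648 calls. Without replicate 1 or 3, only 1 array was left for DEX without nitrogen.

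All 6 chaperone genes had DEX effects below 0 in EV cells, where 47.4% of probe sets with a mean of at least 4 lay above 0. The 6 genes had a median of -0.31 and a range of -0.71 to -0.25, and none passed. For AT1G54050 the value was -0.61 ± 0.14 (limma, adjusted p = 0.144), and with low probe sets removed first its adjusted p was 0.0258. They also lay below 0 in bZIP1 cells with CHX, within the rule's bound, with a median of -0.19. Without CHX 3 of 6 lay above 0. The chaperonin gene AT3G18190, outside this group, had DEX effects of -0.24 in EV cells and 0.17 in bZIP1 cells with CHX. The EV values were measured with no GR::bZIP1 present. In EV cells without DEX, replicate 2 was the highest array for 5 of the 6 genes in both nitrogen states. The group with DEX and without nitrogen had no replicate 2. The DEX effects of the 6 genes were not recomputed without replicate 2, so their dependence on those arrays was not tested.

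The N effect of the members was next compared between cells with and without DEX, as the interaction of N and DEX within each arm. None of the 60 members passed by limma in bZIP1 cells with CHX, in EV cells or in bZIP1 cells without CHX. Of all probe sets 0, 0.0352% and 0 percent passed. By unadjusted p under 0.05 there were 3, 3 and 6 members in these arms, against 2.44%, 3.22% and 2.69% of all probe sets at any level. AT1G70790, the C2 domain gene, had the lowest p in bZIP1 cells with CHX and was also under 0.05 in EV cells. Its interaction was -0.54 ± 0.17 in bZIP1 cells with CHX and -0.42 ± 0.14 in EV cells, both with an adjusted p of 1 by limma. A missed threshold does not show that the N effects were equal with and without DEX.

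The 2 Bioreps of bZIP1 cells with CHX allowed the N effect to be given in each. All 60 members were above 0 in both, 40 reached 0.35 in both, and 35 (58.3%) were larger in Biorep 2, against 57.5% of all probe sets with a mean of at least 4 in the arm. The choice used the mean over Bioreps, so that only their difference is free of it. The difference, Biorep 2 minus Biorep 1, passed for none of the members by limma, against 0.022% of all probe sets. By limma's unadjusted p, 6 members were under 0.05, against 4.16% of all probe sets at any level. Among the chaperone genes all 6 N effects were larger in Biorep 2, with differences of 0.05 to 1.00 and a median of 0.47, against a median of 0.07 over all 60 members. AT5G48570 had N effects of 1.47 in Biorep 2 and 0.47 in Biorep 1, a difference of 1.00 ± 0.30 (limma, adjusted p = 0.937). AT1G53540 had 1.00 in Biorep 2 and 0.35 in Biorep 1, and Hop3 had 1.27 in Biorep 2 and 0.59 in Biorep 1. 252265_at had 3.04 in Biorep 2 and 3.16 in Biorep 1. The differences of AT2G29500, Fes1A and AT1G54050 were 0.05, 0.16 and 0.30. The chaperonin gene AT3G18190, outside this group, had a difference of -0.03.

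**Figure D5:**
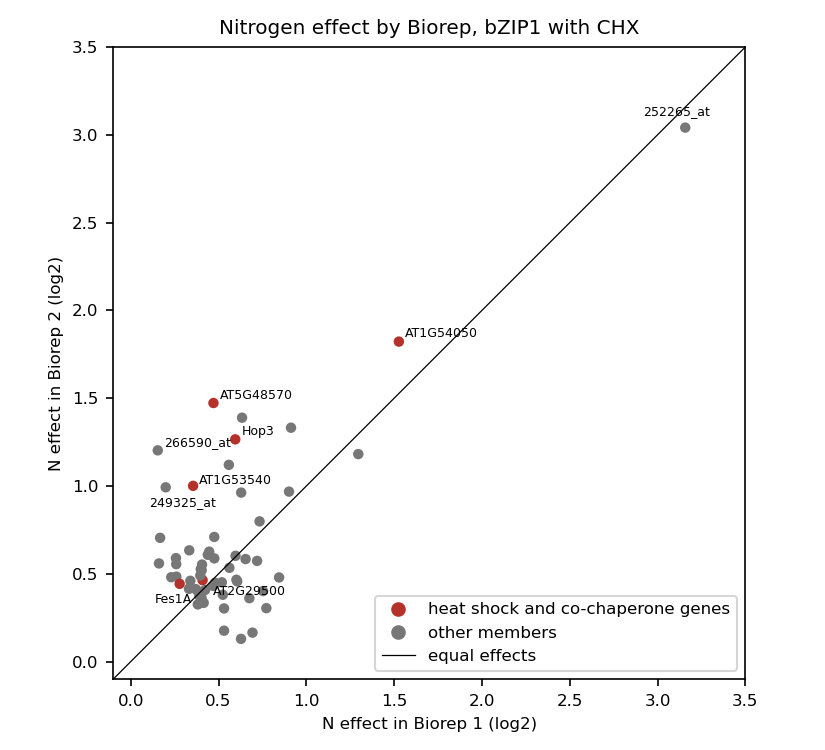
N effect (log2) of the 60 members in Biorep 2 (vertical) and in Biorep 1 (horizontal) of bZIP1 cells with CHX, with a line of equal effects. All points lie above 0 on both axes, 35 lie above the line, and the 6 heat shock and co-chaperone genes, in red, are among these.

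Members were also set against lists of genes for nitrogen use and for protein folding. Of 24 genes for nitrate uptake, assimilation and sensing, 6 probe sets could be matched and none was a member. HHO2 (AT1G68670) met all limits, with N effects of 0.57 ± 0.07 in bZIP1 cells with CHX (limma, adjusted p = 0.000152) and 0.60 ± 0.09 in EV cells (limma, adjusted p = 0.0774), and is absent because it was left out by identifier. HHO3 (AT1G25550), its relative, had N effects of 0.20 ± 0.03 (limma, adjusted p = 0.00143) and 0.27 ± 0.03 (limma, adjusted p = 0.0485) in those arms, below the limit of 0.35. For small heat shock proteins, 9 of 17 could be matched and 3 were members (AT1G54050, AT1G53540 and AT2G29500). A mean level of at least 4 was reached by 6 of the 9 in both arms with CHX and by 4 of the 9 without CHX, and an N effect is hard to measure below that level. In bZIP1 cells with CHX 2 of the 9 rose by limma, and in EV cells 1, both counts made of members. Without CHX 0 of 9 passed, also among the 4 with that mean level. HSP26.5 (AT1G52560) met the limits on N effect, at 0.56 in bZIP1 cells with CHX and 0.81 in EV cells, and is no member because its DEX effect in bZIP1 cells with CHX lay below the bound. HSP23.5 had N effects of -0.26 ± 0.26 and -0.38 ± 0.17 in those arms, with adjusted p of 0.768 and 0.692 by limma.

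Of 28 other chaperone genes and heat shock factors, 6 could be matched and 2 were members (ROF2 and Hop3). The close relatives HOP1 and HOP2 had N effects of 0.26 and 0.20 in bZIP1 cells with CHX and 0.32 and 0.05 in EV cells. The Hsp70 genes HSP70-2 and HSP70-3 had -0.11 and 0.04 in bZIP1 cells with CHX, and -0.22 and 0.08 in EV cells. Genes of the osmotic and abscisic acid response had 6 of 19 matched and held no member. Their median N effect was 0.73 without CHX, where 4 late embryogenesis abundant genes had 0.67 to 0.86 and 0 of the 6 passed by limma. In the arms with CHX, AT2G42560, a late embryogenesis abundant gene, had 0.90 in bZIP1 cells and 0.17 in EV cells, while LEA4-5 had 0.07 and 0.10.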

How the data were processed

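Per the labels' protocols, RNA of sorted protoplasts was amplified, labelled with biotin and hybridised to Affymetrix ATH1 arrays. The deposited values are log2 signals made with GCRMA, per the submitters' processing notes, which give no version of it. The lowest value differed among the 3 arms, so they were evidently normalised separately. The 47 arrays were sorted into 12 groups by their labelled vector, CHX, N and DEX treatment, and 64 control probe sets were left out.

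Each arm was fitted alone with limma 3.58.1 in R 4.3.3 (lmFit and eBayes, two-sided), with Biorep as a covariate in bZIP1 cells with CHX. The p-values were adjusted by Benjamini-Hochberg over all 22746 probe sets, with a threshold of 0.05, for 7 tests of contrasts the choice of members did not use. Those in the arms with CHX were made on arrays that also chose the members. With 2 arrays in 1 EV group, the EV DEX effect and interaction are not fully independent of the N effect that chose the members. Nothing says that treatment replicates were separate cultures, so p-values measure the spread between arrays, which may be technical. Arrays hold no counts, and their number limits the precision. Fits were tested on simulated data, with 200 probe sets of mean level at least 4 changed by 1 on the log2 scale. For the interaction, 14% of these were called in EV cells, 66% in bZIP1 cells with CHX and 47.5% without CHX. For the Biorep difference 59.5% were called. For the N effect without CHX it was 89.5%, and for the DEX effect 72.5% in EV cells and 91.5% without CHX. The simulated noise was independent between arrays, and 200 planted changes ease the adjusted threshold. The median N effect of the members without CHX was 0.15, so these shares do not give the chance of calling a member.

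Gene names came from the platform annotation joined to TAIR10.1 locus tags, which matched 13436 probe sets to 1 gene; 503 carried several symbols. Named were the 10 members with the largest smaller N effect, members on the lists or with a role in them, up to 5 per test and direction with the lowest adjusted p, and those next to the limit of 0.35. Other probe sets named were singled out after their values were seen. The members and lists were chosen with earlier results of these data known. The main fits did not take replicate numbers to pair the arrays. After removal of group means, 18 of 36 same-number pairs in bZIP1 cells with CHX correlated above 0.1. So did 8 of 15 in EV cells and 14 of 18 without CHX. The median correlations in these arms were 0.10, 0.13 and 0.23, so a shared deviation by replicate number is not excluded. Promoter and protein sequences were not used here. The alternatives tried were a filter on low values, quantile normalisation, a trended prior, a replicate block, other limits and leaving out each replicate.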

Additional observations from a re-analysis of the deposited data

Results flagged for a closer look

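In bZIP1 cells with CHX, each named member was searched for single arrays that stood far from the other 5 of their group. Of 112 groups, 28 genes by 4 groups each, 4 held such an array, and chance gives about 1 in 20. For AT2G36650, 1 array with neither nitrogen nor DEX lay at 6.53, with the nearest at 6.06. For AT2G45990, 1 array with neither nitrogen nor DEX lay at 8.28, with the nearest at 7.47. For the chaperonin gene AT3G18190, 1 array with nitrogen and without DEX lay low, at 4.74, with the nearest at 5.43. For AT3G21810, 1 array with DEX and without nitrogen lay low, at 3.40, with the nearest at 4.69. The 4 values came from 4 different arrays.

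For 1 member, 266590_at, the arrays pointed in opposite directions in different arms. In EV cells every array with nitrogen lay above every array without it in both DEX states, with N effects of 1.05 with DEX and 1.25 without. In bZIP1 cells without CHX and with DEX, 266590_at read 5.26, 5.11 and 5.08 with nitrogen and 5.32, 5.41 and 5.76 without, an N effect of -0.34, with all 3 arrays below. Without DEX that arm gave 0.16. The difference between arms was not tested, and the values in EV cells had chosen this member. No share of all probe sets with such a reversal was counted. With 3 arrays against 3, a full separation in 1 DEX state can arise by chance, so nothing is read from this member.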

How the results depend on the processing

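Members called for the N effect without CHX numbered 2, and 6 with low values filtered out. For the DEX effect in EV cells there were 2, and 4 with that filter, and for the DEX effect without CHX 12, and 17 with it. Over all probe sets the filter raised the calls to 89, 404 and 1496, against 20, 238 and 975, with fewer probe sets tested and the spread of each moderated by the remaining ones. Leaving out 1 replicate number gave 0 calls for the N effect without CHX, 0 to 3 for the DEX effect in EV cells, 1 to 4 for the DEX effect without CHX, with 5 to 7, 8 to 784 and 199 to 313 over all probe sets. It gave 0 to 1 for the interaction in EV cells (AT5G20790 without replicate 1, AT2G36650 without replicate 3), with 584, 2 and 565 calls over all probe sets without replicate 1, 2 and 3, against 8 with all arrays. In EV cells without replicate 1 or 3, 1 array stood alone for DEX without nitrogen and was assumed to vary like the other groups. With a replicate block the counts were 2, 2 and 13, with 15, 174 and 1154 over all probe sets. Of 112 recomputed values of single called members, 71 stayed on their side of the threshold, 41 lost it, all with a replicate left out, and 0 changed sign. With the limit of 0.35 on the N effect set to 0.3 or 0.5 there were 113 or 22 members, and 60 in the reported set. After renewed quantile normalisation there were 52. Without replicate 1, 2 or 3 there were 70, 90 and 79, of which 36, 45 and 45 stood among the 60. The median N effect of the members without CHX was 0.126 for the 113, 0.214 for the 22 and 0.148 for the 60, and 0.095 to 0.139 with a replicate left out. Signal close to the lowest value limited 261431_at, which has no measured N effect without CHX. All causes beyond these constructions were not tested.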
